A study of Mus musculus with 6 samples.

Results

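Glycolysis splits glucose into pyruvate in the cytosol, and activated T cells are known for running it at a high rate and releasing much of the pyruvate as lactate even when oxygen is present. The pentose phosphate pathway branches off at glucose-6-phosphate and makes NADPH and ribose, and glycogen is the stored polymer of glucose. Several glycolytic genes are textbook targets of the hypoxia-inducible factor HIF-1 and of MYC. The account below covers 40 genes of these routes, taken by gene symbol from a list chosen with earlier results of these data known. They are glucose and lactate transporters and genes of glycolysis, the entry of pyruvate into mitochondria, the pentose phosphate pathway and glycogen metabolism. All 40 were found among the 31017 genes of the deposited count table.

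The RNA came from mouse Th17 cells, the helper T cells named for interleukin 17, differentiated in culture and sequenced in 6 libraries. The 3 control libraries carry the genotype WT in the labels. The 3 KO libraries come from cells deficient in RTF1, which associates with transcribing RNA polymerase II together with the PAF1 complex and promotes ubiquitination of histone H2B. The labels do not give the allele, the way the gene was removed, a Cre line, the age or strain of the mice, the days in culture or the cytokines used. They also do not say that the replicates are separate animals or cultures. The p-values therefore measure the spread between these libraries, part of which may be technical.

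Total counts per library ran from 16489813 to 51271226 and did not separate the groups. Rtf1 held 94.0, 91.2 and 88.3 CPM in control and 45.3, 30.4 and 26.2 CPM in KO, where CPM are counts normalised to the library total after TMM scaling, so 37.2% of its control mean remained. Of 6 markers of T cells and Th17 cells, Cd3e and Cd3g were called higher in KO and Cd4, Il17a and Il17f lower. Their summed level was 2183 to 2765 CPM in control and 1327 to 1805 CPM in KO, and the part of this difference in the results was not tested. Markers of B cells, of CD8 and NK cells, of erythroid cells and of fibroblasts summed to at most 10.5 CPM in any library, with overlapping groups. Of them only the B cell marker Cd79b was called, lower in KO, with means of 0.603 CPM in control and 0.158 CPM in KO (edgeR log2 fold change −1.96, adjusted p = 0.0236). Ncr1, Klrb1c and Col3a1 had no count in any library. The 4 myeloid markers summed to 0.289 to 0.618 CPM in control and 1.04 to 3.11 CPM in KO, with Csf1r called higher. Replicate 3 of each group carried Y-linked counts (11376 and 5147) where each other library held 1 to 3. Replicate 3 thus held RNA of male cells and is not a technical copy of replicates 1 and 2 of its group. Whether replicates 1 and 2 are separate animals cannot be told from these counts.

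Relative to the scaled library total, the KO libraries held less mRNA of most of these genes. Counts scaled in this way give no amount per cell. Of the 40, 27 were called lower in KO and 1, Eno3, was called higher, with edgeR's quasi-likelihood test at a Benjamini-Hochberg adjusted p under 0.05 over 14268 tested genes, which is the meaning of "called" below. Over all tested genes 46.1% were called, 22.9% lower and 23.2% higher. At least a 2-fold decrease was called for 18 of the 40, against 11.0% of all tested genes. The median log2 fold change was −0.84 for the 40 genes and 0.0132 for all tested genes. As the 40 were chosen with earlier results known, these contrasts with all tested genes are a description and not a test. Each of the 40 passed the filter on low counts, and the lowest count of any of them in any library was 38. In 27 of the 40 every KO library lay below every control library, in 1 above, and in 12 the groups overlapped, where 28.0% of all tested genes had every KO library below every control library.

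Together the 40 genes took 2.34, 2.55 and 2.35% of all counts in the control libraries, in replicate order, against 1.25, 1.26 and 1.19% in the KO libraries. All KO libraries were thus below all control libraries, with means of 2.41% ± 0.121 and 1.23% ± 0.0377 (SD, n = 3), and this share uses no scaling factor. In RNA from a whole culture, fewer cells of a type and less RNA per cell cannot be told apart. The change was uneven along the route. By route, both glucose transporters, 12 of 16 genes from hexokinase to pyruvate kinase, 3 of 4 lactate genes, 2 of 4 genes of pyruvate entry, 3 of 7 pentose phosphate genes and 4 of 5 glycogen genes were called lower, as was 1 of the 2 genes that set fructose-2,6-bisphosphate. The decrease was deep at glucose uptake, at triosephosphate isomerase, at lactate export through Slc16a3 and at glycogen synthesis through Gys1 and Gbe1, and it was not detected at pyruvate kinase, at pyruvate dehydrogenase or for 2 of the 3 genes of the oxidative pentose phosphate branch.

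**Figure D1:**
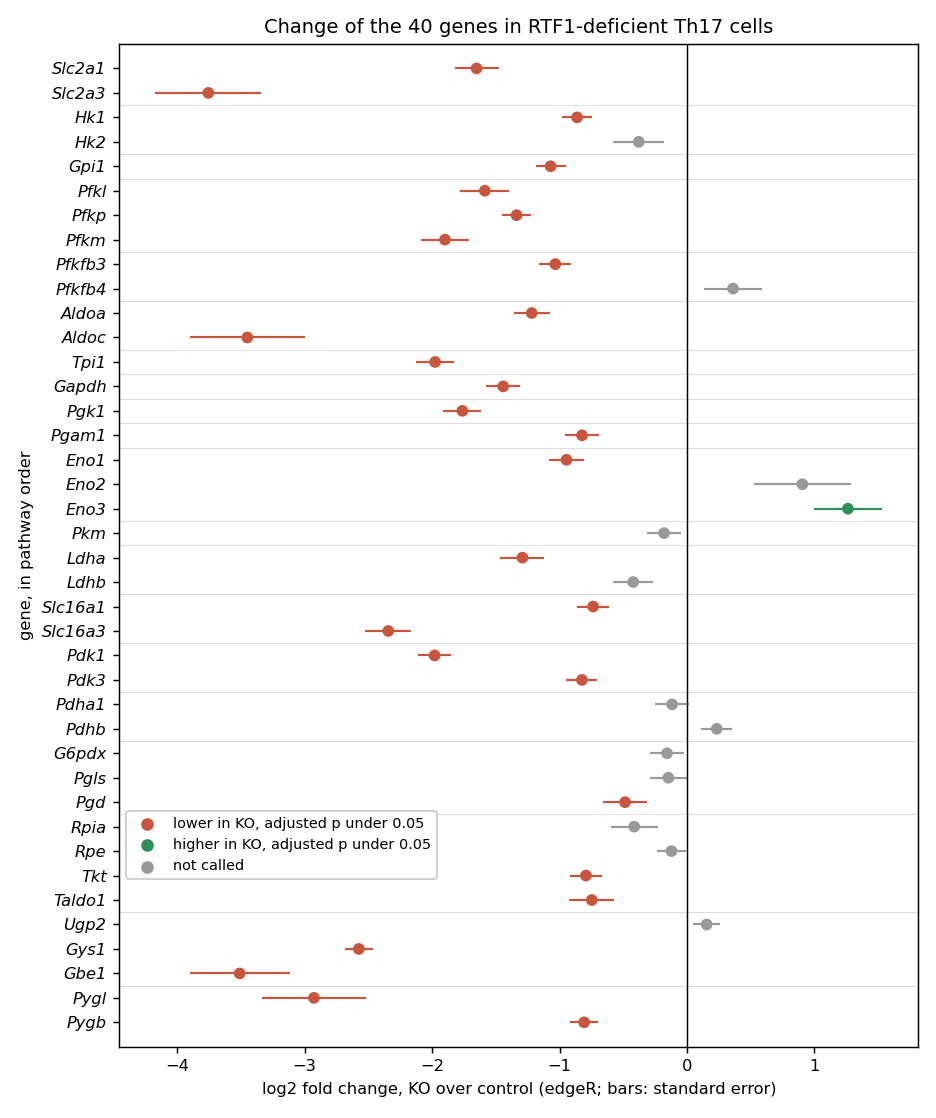
Log2 fold change of KO over control for the 40 genes in pathway order, from edgeR, with bars for the standard error and colours for the call. Points run from −3.76 for Slc2a3 to 1.26 for Eno3, and 27 genes are called lower.

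Promoter sequence is shown for 5 genes called at least 2-fold lower and for Pkm, which was not called, so that the letters before the starts of members that moved and of one that did not can be set side by side. The cores ACGTG and GCGTG belong to the binding motif of hypoxia-inducible factors, and CACGTG, which contains ACGTG on both strands, is the E-box known for MYC and related factors. RefSeq windows on GRCm38.p6, the assembly behind the mm10 build named in the submitters' processing notes, were found for 39 of the 40 symbols, all but Slc2a3. The 250 bases before each annotated start were searched on both strands. Of the 54 windows of the 39 genes, 75.9% held ACGTG or GCGTG, against 38.6% of all 32851 windows and 54.4% of the 13223 windows of tested genes. The share was 76.9% of 39 windows of genes called lower and 73.3% of 15 windows of the other members, so the cores were about as common in both. CACGTG stood in 7.41% of the members' windows and in 8.09% of those of tested genes. The 4 member windows with it were among the 39 of genes called lower (10.3%), namely Ldha, Pfkfb3, Pfkm and Slc16a1. None of the 15 other windows held it. Most member windows belong to genes called lower, and a difference in CACGTG was not tested. A match describes letters only and does not show binding.

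Below, 5′ to 3′ on the strand of the gene, are the 250 bases before the start for 4 genes called lower with such cores (Slc2a1 at chr4:119108495-119108744, Pgk1 at chrX:106186850-106187099, Ldha at chr7:46845554-46845803 and Slc16a3 at chr11:120948817-120949066), for Gys1 at chr7:45434589-45434838, which was called lower and has none, and for the window of Pkm at chr9:59656977-59657226, which was not called and has 1. Ldha and Pkm each have another window, not printed, with 1 such core for Ldha and none for Pkm. All 6 lie on the plus strand, and capitals mark ACGTG or GCGTG on either strand.
Slc2a1: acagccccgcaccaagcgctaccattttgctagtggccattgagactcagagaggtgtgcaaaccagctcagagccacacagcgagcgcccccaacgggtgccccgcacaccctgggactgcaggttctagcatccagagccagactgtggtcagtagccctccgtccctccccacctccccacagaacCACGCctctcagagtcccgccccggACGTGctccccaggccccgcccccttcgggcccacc
Pgk1: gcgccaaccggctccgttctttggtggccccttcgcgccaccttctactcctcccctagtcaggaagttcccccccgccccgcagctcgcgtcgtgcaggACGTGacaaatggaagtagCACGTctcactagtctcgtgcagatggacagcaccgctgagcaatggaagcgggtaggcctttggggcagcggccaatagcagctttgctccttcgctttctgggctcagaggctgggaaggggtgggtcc
Ldha: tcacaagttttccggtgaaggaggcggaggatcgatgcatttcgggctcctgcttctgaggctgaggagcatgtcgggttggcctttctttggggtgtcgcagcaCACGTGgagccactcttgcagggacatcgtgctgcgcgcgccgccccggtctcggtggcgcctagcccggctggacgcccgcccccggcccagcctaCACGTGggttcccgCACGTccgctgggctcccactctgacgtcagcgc
Slc16a3: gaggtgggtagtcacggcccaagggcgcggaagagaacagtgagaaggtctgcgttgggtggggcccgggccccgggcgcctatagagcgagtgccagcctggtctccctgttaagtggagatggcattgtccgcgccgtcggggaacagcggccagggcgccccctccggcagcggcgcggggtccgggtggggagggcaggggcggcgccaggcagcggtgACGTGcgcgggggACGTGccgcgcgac
Gys1: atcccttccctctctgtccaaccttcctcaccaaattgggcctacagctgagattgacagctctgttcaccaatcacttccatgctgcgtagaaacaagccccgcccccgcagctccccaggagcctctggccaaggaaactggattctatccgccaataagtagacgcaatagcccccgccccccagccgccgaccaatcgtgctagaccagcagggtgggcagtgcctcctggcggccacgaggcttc
Pkm: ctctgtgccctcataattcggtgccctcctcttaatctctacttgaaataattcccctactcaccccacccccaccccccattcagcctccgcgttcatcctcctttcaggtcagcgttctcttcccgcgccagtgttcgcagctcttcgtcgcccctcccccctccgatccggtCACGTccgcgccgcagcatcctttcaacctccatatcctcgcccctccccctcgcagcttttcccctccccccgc

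Glucose enters T cells through the facilitative transporters GLUT1, the product of Slc2a1, and GLUT3, the product of Slc2a3. Slc2a1 (chr4:119108711-119137983, GENCODE M21 on GRCm38) held 314, 328 and 215 CPM in control replicates 1, 2 and 3 and 99.4, 89.5 and 84.2 CPM in the KO replicates. The lowest control library was more than any KO library (edgeR log2 fold change −1.65 with SE 0.172, adjusted p = 0.000272). Slc2a3 (chr6:122727809-122801640) held 157, 168 and 464 CPM in control replicates 1, 2 and 3 and 17.7, 20.8 and 20.0 CPM in the KO replicates. Control replicate 3 stood far above the other control libraries, and the KO libraries lay close together at about the same low level (edgeR log2 fold change −3.76 with SE 0.415, adjusted p = 0.000355). Without control replicate 3 the log2 fold change of Slc2a3 was −3.12, adjusted p = 1.4e-06. This was the deepest decrease among the 40 genes with all libraries kept, and 0.308% of all tested genes had a lower fold change.

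Levels of different genes were compared per length, as CPM per kilobase of annotated exon, and summed over the genes of a step. Glucose transporter mRNA fell from 118 ± 7.08 to 28.6 ± 2.02 CPM per kilobase (SD, n = 3), which is 24.3% of control. Slc2a3 made up 19.5, 19.9 and 51.1% in control and 7.93, 10.1 and 10.3% in KO of this sum. No share in KO reached a share in control, and the share in control replicate 3 differed more from those in control replicates 1 and 2 than these did from KO. The log2 ratio of Slc2a1 to Slc2a3 counts within a library was 1.93 higher in KO than in control, and 1.24 higher without control replicate 3.

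Hexokinase traps glucose in the cell as glucose-6-phosphate. Hk1 (chr10:62268855-62379908) held 391, 421 and 418 CPM in control and 229, 205 and 243 CPM in KO and was called lower (edgeR log2 fold change −0.86 with SE 0.117, adjusted p = 0.000775). Hk2 (chr6:82725025-82774454), the inducible hexokinase, held 477, 414 and 392 CPM in control and 321, 241 and 425 CPM in KO and was not called (edgeR log2 fold change −0.38 with SE 0.198, adjusted p = 0.146). KO replicate 3 lay above 2 of the control libraries, and without it Hk2 was called (−0.61, adjusted p = 0.032, edgeR), as it was without replicate 3 of both groups (−0.67, adjusted p = 0.0103). Per length, Hk2 made up 63.6, 58.4 and 57.3% in control and 66.7, 62.7 and 71.4% in KO of hexokinase mRNA. These shares overlapped, and the log2 ratio of Hk2 to Hk1 differed by 0.45 (exact permutation test, two-sided, p = 0.2, where 0.1 is the smallest p possible with 3 libraries per group). Between libraries of the same replicate number the ratio was higher in KO by 0.20, 0.26 and 0.90, a positive difference in each of the 3.

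Glucose-6-phosphate isomerase, from Gpi1, makes fructose-6-phosphate, which phosphofructokinase commits to glycolysis. Gpi1 fell from 489 ± 26.9 to 233 ± 17.5 CPM (SD, n = 3, edgeR log2 fold change −1.07 with SE 0.118, adjusted p = 0.000348). All 3 phosphofructokinase subunit genes fell. Pfkl, the liver-type subunit, held 304, 311 and 213 CPM in control and 111, 90.2 and 74.5 CPM in KO (edgeR log2 fold change −1.59 with SE 0.193, adjusted p = 0.000515). Pfkp, the platelet-type subunit, held 681, 639 and 663 CPM in control and 271, 253 and 262 CPM in KO (edgeR log2 fold change −1.34 with SE 0.111, adjusted p = 0.000124). Pfkm, the muscle-type subunit, was the least abundant per length and held 34.2, 32.5 and 47.1 CPM in control and 10.1, 11.6 and 8.74 CPM in KO (edgeR log2 fold change −1.90 with SE 0.189, adjusted p = 0.000236). No KO library of these 3 genes reached a control library. Within the step, Pfkp made up 47.7, 45.9 and 51.8% in control and 50.7, 52.6 and 58.6% in KO of the sum per length, and the groups overlapped for the shares of all 3 subunits. The log2 ratio of Pfkp to Pfkl differed by 0.25 (exact permutation test, two-sided, p = 0.4), with 0.12, 0.45 and 0.17 between libraries of the same number and a range from 0.11 without KO replicate 3 to 0.43 without control replicate 3. The log2 ratio of Pfkm to Pfkl differed by −0.30 (same test, exact p = 0.7), with a change of sign to 0.0435 without control replicate 3.

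Fructose-2,6-bisphosphate, the strongest activator of phosphofructokinase, is made and removed by the bifunctional PFKFB enzymes, and the PFKFB3 form favours its synthesis. Pfkfb3 held 76.1, 67.7 and 73.0 CPM in control and 32.2, 39.8 and 33.8 CPM in KO, with each KO library well below control (edgeR log2 fold change −1.03 with SE 0.125, adjusted p = 0.000499). Its relative Pfkfb4 held 9.54, 9.47 and 12.8 CPM in control and 9.68, 15.5 and 15.8 CPM in KO, with overlapping groups, and was not called (edgeR log2 fold change 0.36 with SE 0.231, adjusted p = 0.228). The share of Pfkfb4 in the sum per length was 16.3, 17.8 and 21.4% in control and 31.8, 37.7 and 42.0% in KO, higher in each KO library than in any control library. The log2 ratio of Pfkfb3 to Pfkfb4 moved by −1.38 from control to KO.

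Aldolase cuts the hexose into triose phosphates, which triosephosphate isomerase interconverts. Aldoa, which held nearly all aldolase mRNA, fell from 1753 ± 206 to 754 ± 56.1 CPM (SD, n = 3, edgeR log2 fold change −1.22 with SE 0.141, adjusted p = 0.000426). Aldoc, the form best known from brain, held 30.6, 39.7 and 89.9 CPM in control and 2.77, 6.06 and 5.85 CPM in KO (edgeR log2 fold change −3.45 with SE 0.453, adjusted p = 0.000688). As with Slc2a3, control replicate 3 held over 2 times as much as the next control library, and the decrease remained called without it (−2.91, adjusted p = 8.7e-05). Per length, Aldoc made up 2.25, 2.36 and 5.16% in control and 0.416, 0.844 and 0.944% in KO of the step. Tpi1 (chr6:124810586-124814296) held 1397, 1588 and 1176 CPM in control and 375, 345 and 338 CPM in KO. Its decrease (edgeR log2 fold change −1.98 with SE 0.148, adjusted p = 8.3e-05) was the deepest among the steps with a single gene, and 25.4% of the control mean remained.

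**Figure D2:**
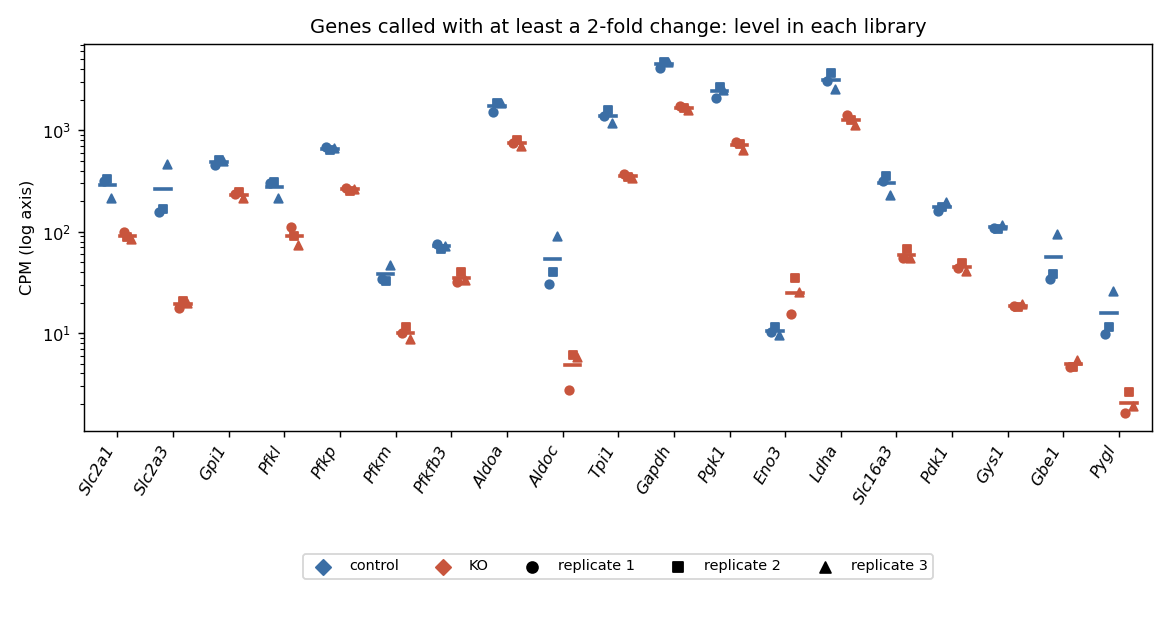
CPM in each library (log axis) for the 19 genes called with at least a 2-fold change, with control in blue, KO in red, marker shape for the replicate number and lines for the group means. Eno3 alone is higher in KO, and control replicate 3 stands apart for Slc2a3, Aldoc, Gbe1 and Pygl.

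The later part of glycolysis, where ATP and pyruvate are made, fell at every step before pyruvate kinase. Gapdh, whose enzyme oxidises glyceraldehyde-3-phosphate and whose mRNA is often used as a reference gene, held 4133, 4767 and 4717 CPM in control and 1751, 1672 and 1589 CPM in KO. The KO libraries lay within a narrow band below control (edgeR log2 fold change −1.44 with SE 0.135, adjusted p = 0.000193), and the raw share of all counts in Gapdh moved the same way, 0.412, 0.451 and 0.456% in control and 0.180, 0.174 and 0.162% in KO. Pgk1, phosphoglycerate kinase on the X chromosome (chrX:106187100-106203699), held 2091, 2655 and 2502 CPM in control and 764, 737 and 636 CPM in KO (edgeR log2 fold change −1.76 with SE 0.149, adjusted p = 0.000134). Without replicate 3 of both groups, which leaves the libraries with 1 to 3 Y-linked counts, the log2 fold change was −1.66. Pgam1, phosphoglycerate mutase, fell less, from 479 ± 54.4 to 271 ± 23.8 CPM (SD, n = 3, edgeR log2 fold change −0.82 with SE 0.132, adjusted p = 0.0016).

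At enolase 1 paralog was called higher while the main form was called lower. Eno1 (chr4:150236721-150248879), the general form, held 2538, 2903 and 2428 CPM in control and 1396, 1415 and 1275 CPM in KO (edgeR log2 fold change −0.95 with SE 0.134, adjusted p = 0.000945). Eno3 (chr11:70657202-70662513), the form best known from muscle, held 10.3, 11.5 and 9.62 CPM in control and 15.5, 34.7 and 25.2 CPM in KO and was the only one of the 40 genes called higher (edgeR log2 fold change 1.26 with SE 0.268, adjusted p = 0.00541). The control libraries of Eno3 agree closely, while the KO libraries spread over a wide range above them. Eno2, the neuronal form, held 5.29, 2.60 and 6.84 CPM in control and 5.88, 10.5 and 11.1 CPM in KO. It was not called (edgeR log2 fold change 0.91 with SE 0.380, adjusted p = 0.0793) but was called with the replicate number as a block (0.97, adjusted p = 0.0332). Per length Eno1 still held most enolase mRNA, 98.5, 98.7 and 98.5% in control and 96.2, 92.2 and 93.4% in KO, while Eno3 took 1.22% ± 0.0145 of it in control and 5.33% ± 1.88 in KO (mean ± SD, n = 3). The log2 ratio to Eno1 rose by 2.13 for Eno3 and 1.89 for Eno2, with no overlap of the groups in either.

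Pyruvate kinase, the last step, stood apart from its neighbours. Pkm (chr9:59656368-59679375) held 2963, 3414 and 3214 CPM in control replicates 1, 2 and 3 and 2586, 2862 and 3020.3 CPM in the KO replicates. The groups overlapped and Pkm was not called (edgeR log2 fold change −0.18 with SE 0.135, adjusted p = 0.303), with log2 fold changes from −0.30 to −0.09 over all alternatives. Per length, Pkm held 639 ± 45.2 CPM per kilobase in control, less than Gapdh with 1098 ± 85.3 and Pgk1 with 1077 ± 129.9. In KO Pkm was the highest of the 3 by this measure, with 564 ± 43.9 for Pkm against 404 ± 19.6 for Gapdh and 317 ± 30.1 for Pgk1 (SD, n = 3). The lengths are unions of all annotated exons, 5001 bases for Pkm, 4133 for Gapdh and 2244 for Pgk1. A union can be much longer than the main transcript, so the order of the 3 genes within a group is uncertain. Counts per gene do not divide Pkm into its M1 and M2 splice forms.

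**Figure D3:**
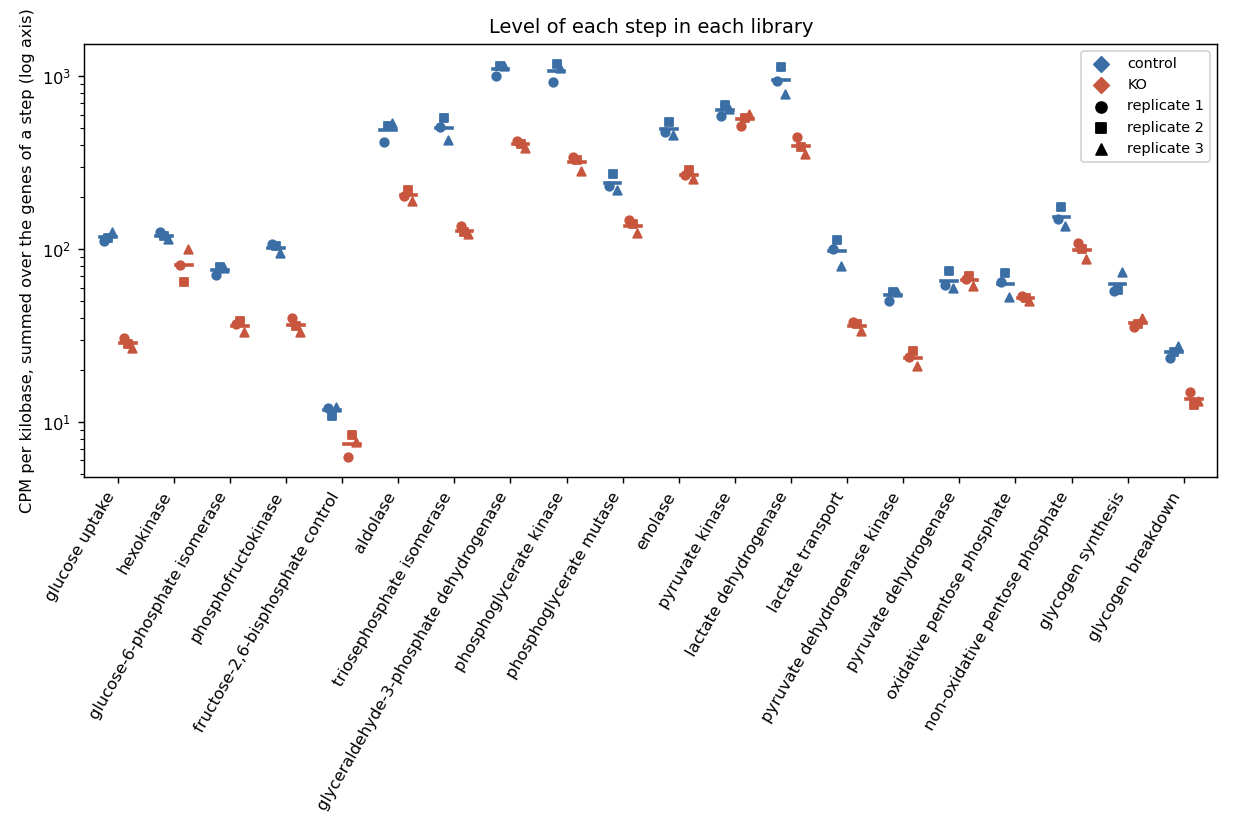
CPM per kilobase summed over the genes of each of the 20 steps, in each library (log axis), with lines for the group means. KO lies below control without overlap at 17 steps, and the groups overlap at pyruvate kinase, pyruvate dehydrogenase and the oxidative pentose phosphate branch. A summed step can separate while a gene in it overlaps, as Hk2 does in hexokinase and Ugp2 in glycogen synthesis. Among single tested genes, 28.0% had every KO library below every control library.

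Lactate dehydrogenase turns pyruvate into lactate, chiefly through the A subunit. Ldha (chr7:46841475-46855627) held 3074, 3699 and 2568 CPM in control and 1429.8, 1257 and 1129.7 CPM in KO. Every KO library was below every control library (edgeR log2 fold change −1.29 with SE 0.173, adjusted p = 0.000743). Ldhb, for the B subunit, held 22.3, 25.4 and 29.9 CPM in control and 18.4, 18.1 and 21.6 CPM in KO. It was not called (edgeR log2 fold change −0.42 with SE 0.155, adjusted p = 0.0514) although its groups did not overlap, and it passed with the replicate number as a block (−0.41, adjusted p = 0.0251) and in DESeq2 (adjusted p = 0.0484). Per length, the B subunit gene took 1.77% ± 0.537 in control and 3.15% ± 0.639 of the step in KO (SD, n = 3), so Ldha remained the main form in each library.

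Lactate leaves through the monocarboxylate transporters MCT1, from Slc16a1, and MCT4, from Slc16a3, the form known for export from glycolytic cells. Slc16a3 (chr11:120948480-120960868) held 315, 358 and 228 CPM in control and 54.7, 67.2 and 55.4 CPM in KO (edgeR log2 fold change −2.34 with SE 0.182, adjusted p = 9.8e-05). Slc16a1 held 184, 204 and 164 CPM in control and 122, 107 and 102 CPM in KO (edgeR log2 fold change −0.74 with SE 0.126, adjusted p = 0.00212). Both genes fell, Slc16a3 further. The share of Slc16a1 in the sum per length was 41.3, 40.7 and 46.3% in control and 72.8, 65.7 and 68.9% in KO. By this measure the larger share was that of Slc16a3 in each control library and of Slc16a1 in each KO library. Control replicate 3 lay nearest to even. The lengths are unions of all annotated exons (5318 bases for Slc16a3 and 4426 for Slc16a1), and which gene is ahead depends on them. The log2 ratio of Slc16a1 to Slc16a3 counts, which uses no length, was 1.59 higher in KO than in control.

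Pyruvate dehydrogenase feeds pyruvate to the tricarboxylic acid cycle, and its kinases switch it off. Pdk1 (chr2:71873224-71903858) held 158, 175 and 197 CPM in control and 43.8, 49.7 and 40.7 CPM in KO (edgeR log2 fold change −1.98 with SE 0.131, adjusted p = 5.8e-05). Pdk3, on the X chromosome, held 75.8, 87.9 and 79.1 CPM in control and 46.5, 49.8 and 40.7 CPM in KO (edgeR log2 fold change −0.82 with SE 0.122, adjusted p = 0.00112). Both kinases fell, and the log2 ratio of Pdk1 to Pdk3 was −1.15 in KO relative to control, with the KO libraries all near −0.03 and the control libraries between 0.99 and 1.32. The E1 subunits of the dehydrogenase itself were not called. Pdha1, on the X chromosome, held 156 ± 20.1 and 144 ± 16.1 CPM (edgeR log2 fold change −0.12 with SE 0.135, adjusted p = 0.505) and Pdhb held 91.7 ± 11.1 and 108 ± 7.54 CPM (SD, n = 3, edgeR log2 fold change 0.23 with SE 0.123, adjusted p = 0.149). The groups overlapped for both.

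Across the 13 pairs of paralogs or partner subunits compared, the log2 ratio within a library separated the groups in 10. It overlapped in 3, those of Hk2 to Hk1, Pfkp to Pfkl and Pfkm to Pfkl. Separation is common in these data: 28.0% of single tested genes had every KO library below every control library and 29.9% above. The share for ratios of other gene pairs was not computed. Each of the 10 gave p = 0.1 in the exact two-sided permutation test and an adjusted p of 0.13 over the 13 pairs. That is the smallest p this unpaired permutation test can give with 3 libraries per group, so it could pass 0.05 for no ratio. The size of the shift ran from −2.14 for Aldoc to Aldoa to 2.13 for Eno3 to Eno1.

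**Figure D4:**
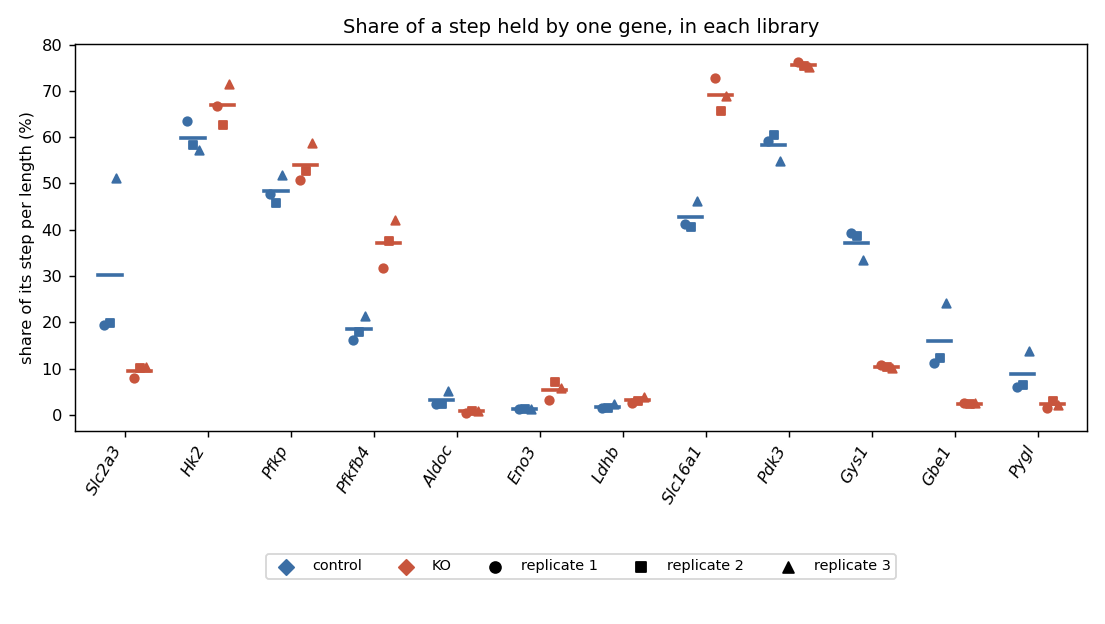
Share of a step, per length, held by one of its genes in each library, in percent, with lines for the group means. The KO libraries are separated from control for 10 of the 12 genes drawn, and Hk2 and Pfkp overlap. By CPM, 28.0% of single tested genes lay fully below control and 29.9% fully above.

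The pentose phosphate genes moved less. Of 7, 3 were called lower, Pgd, Tkt and Taldo1, with log2 fold changes from −0.79 to −0.49, and none reached a 2-fold decrease. In the oxidative branch, which makes NADPH, G6pdx, the rate-limiting dehydrogenase on the X chromosome, held 78.7, 96.0 and 70.2 CPM in control and 72.6, 74.2 and 73.0 CPM in KO and was not called (edgeR log2 fold change −0.16 with SE 0.131, adjusted p = 0.355). Pgls, the lactonase, held 33.7, 42.8 and 39.0 CPM in control and 34.5, 39.0 and 31.0 CPM in KO, again with overlap, and was not called either (edgeR log2 fold change −0.15 with SE 0.143, adjusted p = 0.428). Pgd, 6-phosphogluconate dehydrogenase, held 192, 195 and 125 CPM in control and 134, 115 and 117 CPM in KO. Control replicate 3 lay below KO replicate 1, and the call (edgeR log2 fold change −0.49 with SE 0.174, adjusted p = 0.0474) did not hold when libraries were scaled by size alone (adjusted p = 0.0901), nor in 5 of the 6 comparisons with 1 library left out, which gave log2 fold changes between −0.72 and −0.39.

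The non-oxidative branch links ribose phosphates back to glycolysis through transketolase and transaldolase. Tkt fell from 495 ± 51.7 to 286 ± 19.1 CPM (SD, n = 3, edgeR log2 fold change −0.79 with SE 0.126, adjusted p = 0.00154) and Taldo1 from 120.2 ± 25.0 to 71.6 ± 10.9 CPM (edgeR log2 fold change −0.75 with SE 0.176, adjusted p = 0.00863), without overlap of the groups in either. Rpia and Rpe, which interconvert the pentose phosphates, were not called. Rpia held 44.3, 51.4 and 35.0 CPM in control and 39.2, 31.6 and 27.2 CPM in KO (edgeR log2 fold change −0.41 with SE 0.184, adjusted p = 0.0953), and Rpe held 66.8, 73.0 and 70.9 CPM in control and 68.6, 67.0 and 58.1 CPM in KO (edgeR log2 fold change −0.12 with SE 0.112, adjusted p = 0.395), so that the groups overlapped in both. With the block on replicate number Rpia passed too (−0.42, adjusted p = 0.0272).

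Glycogen metabolism held some of the deepest decreases. Gys1 (chr7:45434844-45456619), the glycogen synthase of non-hepatic tissues, held 108, 107 and 118 CPM in control replicates 1, 2 and 3 and 18.3, 18.2 and 19.4 CPM in the KO replicates. Both groups were tight and far apart (edgeR log2 fold change −2.57 with SE 0.110, adjusted p = 1.4e-05), and 16.8% of the control mean remained. Gbe1 (chr16:70313949-70569716), the branching enzyme, held 34.5, 38.1 and 94.9 CPM in control and 4.67, 4.62 and 5.49 CPM in KO (edgeR log2 fold change −3.51 with SE 0.393, adjusted p = 0.000369). Control replicate 3 stood above the other controls by more than 2 times here too, and without it the log2 fold change was −2.95, adjusted p = 5.5e-06. Ugp2, which makes UDP-glucose for glycogen and for other sugar chains, held 87.5, 86.8 and 95.6 CPM in control and 94.2, 99.1 and 107 CPM in KO and was not called (edgeR log2 fold change 0.15 with SE 0.106, adjusted p = 0.258). As a share of the 3 synthesis genes per length, Gys1 went from 37.1% ± 3.17 to 10.4% ± 0.376 (SD, n = 3).

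Glycogen phosphorylase releases glucose-1-phosphate. Pygl, the liver form, was low in control and lower in KO, 9.79, 11.4 and 26.1 CPM in control and 1.63, 2.62 and 1.93 CPM in KO (edgeR log2 fold change −2.93 with SE 0.407, adjusted p = 0.000858), again with control replicate 3 highest. Without that library the log2 fold change of Pygl was −2.41, adjusted p = 0.000159. Pygb, the brain form, held 106, 115 and 113 CPM in control and 70.6, 58.6 and 62.1 CPM in KO (edgeR log2 fold change −0.81 with SE 0.112, adjusted p = 0.000857) and made up most phosphorylase mRNA per length, 94.0, 93.5 and 86.2% in control and 98.4, 97.0 and 97.9% in KO.

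Control replicate 3 held at least 2 times the next control library for 4 of the 40 genes, Slc2a3, Aldoc, Gbe1 and Pygl. It also held the highest Hif1a of any library, 1229 CPM, against 791 and 830.2 CPM for the other controls and 437, 465 and 464 CPM for the KO libraries, where Hif1a encodes the oxygen-regulated subunit of HIF-1. Hif1a was called lower in KO (edgeR log2 fold change −1.06 with SE 0.179, adjusted p = 0.00197). Myc held 281, 315 and 339 CPM in control and 192, 171 and 199 CPM in KO. Myc was called lower as well (edgeR log2 fold change −0.73 with SE 0.123, adjusted p = 0.00193). The part of Hif1a or Myc in the values of the 40 genes was not tested. The number of the 40 genes called lower was 28 without control replicate 3 and between 26 and 29 over all alternatives, and each of the 40 kept its direction in all 13.

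Beyond the 40 genes, a list of 62 further genes of the same routes was examined, and 48 passed the filter. Of these 17 were called lower and 7 higher, 35.4% and 14.6% of those tested, with a median log2 fold change of −0.24. Over all tested genes 22.9% were called lower and 23.2% higher, and the counts by route below rest on few genes each. Glycogen genes were called lower in 9 of 17 and higher in none, the remaining glycolysis genes lower in 5 and higher in 4 of 14, pentose phosphate genes lower in 2 and higher in 2 of 6, and genes of pyruvate entry lower in none and higher in 1 of 9. That 1 was Mpc2, a subunit of the mitochondrial pyruvate carrier (0.49, adjusted p = 0.011, edgeR), while the pyruvate dehydrogenase subunits Dlat, Dld and Pdhx were not called, with log2 fold changes of −0.14, −0.01 and 0.13.

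Under the rule for naming these further genes, at least a 2-fold called change and a mean of at least 5 CPM, 6 are described here. In the glycogen route, the gene listed as Pgm2, a phosphoglucomutase, held 120.1, 117 and 153 CPM in control and 27.8, 25.5 and 29.0 CPM in KO (edgeR log2 fold change −2.25 with SE 0.139, adjusted p = 4.8e-05). RefSeq gives Pgm1 and Pgm2 as earlier names of each other, so which of these 2 enzymes the row holds depends on the annotation the authors used, which is not given in the sources used here. The row listed as Pgm1 was not called (−0.14, adjusted p = 0.366). Pgm2l1, which makes glucose-1,6-bisphosphate, fell as well (edgeR log2 fold change −1.66 with SE 0.246, adjusted p = 0.00113).

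In glycolysis and uptake, Pgp, a phosphatase that clears side products of glycolysis, Pfkfb1 and the transporter gene Slc2a8 were called lower, with log2 fold changes of −1.31, −1.40 and −1.14 (edgeR adjusted p = 0.00152, 0.00386 and 0.00342). Pgam2, the muscle form of phosphoglycerate mutase, was called higher and held 1.70, 1.01 and 2.19 CPM in control and 9.68, 11.0 and 12.9 CPM in KO (edgeR log2 fold change 2.78 with SE 0.314, adjusted p = 0.000386). At the steps of enolase and phosphoglycerate mutase the muscle-type paralog therefore rose while the main form fell. This did not hold at phosphofructokinase, where the muscle-type subunit gene Pfkm was called lower (edgeR log2 fold change −1.90, adjusted p = 0.000236). Eno3 and Pgam2 stayed low, at 25.1 ± 9.65 CPM for Eno3 and 11.2 ± 1.60 CPM for Pgam2 in KO (SD, n = 3).

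Some of the 40 genes have near-copies elsewhere in the genome, mostly processed pseudogenes, and reads from these may be missed or misassigned. The share of 50-base stretches of a gene's transcripts that also occurs in transcripts of another gene was above 10% for 8 of the 40: 53.9% for Pgk1, 36.2% for Pgam1, 26.0% for Eno1, 25.8% for Pkm, 24.7% for Gapdh, 21.0% for Ldhb, 18.9% for Pgls and 10.9% for Pdhb. Their levels per length are uncertain for that reason. The copy Eno1b held 2332 counts over the 6 libraries against 399435 for Eno1. Pgls shares 20.6% of its exon bases with Fam129c and Pkm 15.3% with Gm49759 on the same strand, and reads there cannot be told apart. As the strand setting of the counting is not given in the sources used here, neither can reads from antisense overlaps of Pdha1 (16.1% of exon bases shared with Map3k15), G6pdx (13.6% with Ikbkg), Rpe (17.9% with Kansl1l) and Gpi1 (11.5% with Gm26762).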

How the data were processed

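RNA-seq counts of 3 control and 3 KO libraries of mouse Th17 cells were analysed. The authors deposited whole-number counts per gene symbol, not normalized as far as the values show. Per the submitters' processing notes, the tools named were STAR, featureCounts and DESeq2 and the build mm10. Their roles, versions, annotation and strand setting are not given in the sources used here. Group and replicate came from sample titles. There were 0 columns without a sample and 0 rows without a gene name.

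The whole table was fitted with edgeR 4.0.16 (R 4.3.3) by the quasi-likelihood test on group alone, with TMM scaling. Genes of low count were removed by filterByExpr, which left 14268, and p-values were adjusted by Benjamini-Hochberg over all of them. The common biological coefficient of variation was 0.212. SE is the absolute log2 fold change over the square root of F. The script was tested on simulated data. Paralog ratios used log2 of counts plus 2. Exon lengths came from GENCODE M21 (unions of all annotated exons), which lowers the level per length of genes with many isoforms, and promoters from RefSeq. Total counts of 16489813 to 51271226 per library set the precision, with counting error only part of it.

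The 40 members and the lists were chosen with earlier results of these data known. All 40 are accounted for. Values in every library are given for members called with at least a 2-fold change and for the most counted paralog of a step, or as means with SD (n = 3), and the further pathway genes named are those called with at least a 2-fold change and a mean of at least 5 CPM. Some listed genes are not reported here. Both groups carry replicate numbers 1, 2 and 3. Deviations from the group means of equally numbered libraries correlated across genes with 0.270, 0.130 and 0.379, and those of unequal number with −0.390 to 0.204. Each equal pair was above 0.1, which was the condition for giving a blocked fit beside the results, although the labels give no meaning for the numbers. The main fit and the ratio tests have no block, and the block's value is given where it changed a call. Alternatives were DESeq2 1.42.0 as test and for size factors, library size only, TMM without the 50 most counted genes, no filter beyond any count, the block, leaving out each library, and leaving out replicate 3 of both groups.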

Additional observations from a re-analysis of the deposited data

How the results depend on the processing

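Over 13 alternative fits the 40 genes gave 520 values, of which 498 stayed on the same side of the threshold, 16 became called and 6 lost a call, and all kept their direction. The 6 losses were those of Pgd. The number called lower ranged from 26 to 29, and 26 or 27 of the 27 were shared with the main comparison in each. The number called higher was 2, Eno2 joining Eno3, without the filter, by DESeq2, with the replicate block, without replicate 3 of both groups, and without control replicate 3 or KO replicate 1. Leaving out 1 library gave 1 to 2. The replicate block called 29 of the 40 lower, adding Ldhb and Rpia, and beside these and Eno2 it changed no call among them. Over all tested genes the block called 7628 against 6574. The members' median log2 fold change was −0.75 when libraries were scaled by size alone, and −0.95 to −0.83 with 1 library left out. The count of further pathway genes called higher was 3 to 7 with 1 library left out, 3 being without KO replicate 2. The log2 ratio of Pfkm to Pfkl changed sign, to 0.00212 without replicate 3 of both groups and to 0.0435 without control replicate 3, the high end of a range whose low end was −0.50 with 1 library left out, and the cause was not tested. The unpaired permutation test could pass 0.05 for no paralog ratio. The lowest count of the 40 genes was 38, and the effect of depth on their calls was not tested. Several further pathway genes lay near 0.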

Other observations

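Further genes of the same routes fell outside the rule for naming and were chosen after their values were seen. Epm2a, laforin, which removes phosphate from glycogen, held 4.68, 5.04 and 12.4 CPM in control and 0.494, 0.240 and 0.203 CPM in KO (edgeR log2 fold change −4.55 with SE 0.539, adjusted p = 0.000459). Stbd1, a glycogen-binding protein, held 1.16, 1.40 and 2.57 CPM in control and 0.304, 0.240 and 0.508 CPM in KO (edgeR log2 fold change −2.34 with SE 0.477, adjusted p = 0.00447). Both were lower in each KO library than in any control library. Among genes called higher, Tigar, whose product lowers fructose-2,6-bisphosphate and which is a known p53 target, went from 32.4 ± 6.73 to 46.7 ± 3.20 CPM (SD, n = 3, edgeR log2 fold change 0.53 with SE 0.165, adjusted p = 0.0286), and Rbks, ribokinase, from 6.85 ± 0.485 to 12.0 ± 1.54 CPM (edgeR log2 fold change 0.80 with SE 0.182, adjusted p = 0.00733).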
